A study of Mus musculus with 4 samples.

Results

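The genes described here make and control MHC class II molecules. The set holds 10 mouse genes: the chain genes H2-Aa, H2-Ab1 and H2-Eb1, the peptide-loading genes H2-DMa, H2-DMb1, H2-Oa and H2-Ob, the invariant chain gene Cd74, and the transcriptional regulators Ciita and Rfx5. They were chosen by function, and every probe set that the platform annotation gives to one of them was taken. Of the 10 genes, 9 had values, among 7577 genes with values in all, and Rfx5 was not analysed here because no probe set with values is annotated to it. These 9 genes were read by 11 of 10649 probe sets; 10 of the 11 name a single gene and 1 names H2-DMb1 together with its close relative H2-DMb2.

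RNA was measured on 1-colour Affymetrix arrays in peritoneal macrophages of mice labelled PPARg WT (2 arrays) and PPARg KO (2 arrays), all on a mixed 129/SV and C57BL/6 background. PPARg is the lipid-activated nuclear receptor encoded by Pparg; how it was deleted, and the age of the mice, are not given in the labels. All mice had received 2.5 ml of 3% thioglycollate, an irritant that draws monocyte-derived macrophages into the peritoneum, and were lavaged 3 days later. All cells were plated in 10% serum, rinsed at 5 h and then held in 0.5% serum over 24 h; the labels name no ligand or cytokine. Nothing in the labels tells whether the paired arrays are separate animals or cultures, and the description of each second array ends in dup. The p-values therefore cover only array-to-array spread, which may be technical.

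Class II molecules display peptides from ingested proteins to CD4 T cells. An alpha and a beta chain assemble around the invariant chain, which blocks the peptide groove and directs the complex to endosomes; there proteases trim it, the DM heterodimer exchanges its last fragment for antigenic peptide, and the DO heterodimer restrains DM. Transcription of these genes depends on Ciita, a coactivator that does not bind DNA itself and is recruited by the RFX complex, NF-Y and CREB on the conserved X and Y boxes of class II promoters. In macrophages Ciita is known to be induced by interferon-gamma.

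The promoters of the set are shown first because most of those at hand carry a common pair of short sequences. RefSeq promoter entries (assembly GRCm38.p6) matched 7 of the 10 genes; those for H2-Ab1, Cd74 and Ciita were not used here. In the 250 bases before the annotated start, both strands were searched for GNAAC, the core of an X box, for GATTGG, the core of a Y box, and for GNAAC followed by GATTGG on the same strand with 24 to 30 bases between. That spacing was chosen after the sequences had been read. The pair lies before 5 of the 7 genes, H2-Aa, H2-Eb1, H2-DMb1, H2-Oa and H2-Ob. It lies before 0.448% of all 27025 genes, and in 0.396% of all 32851 promoter windows of that length. As the spacing was chosen with these promoters in view, the contrast may be inflated. GATTGG, whether or not paired, lies in 14.6% of windows and GNAAC in 79.6%. The last 110 bases before the start of these 5 genes follow, 5′ to 3′ on the gene's strand, with both cores of the pair in capitals.
H2-Aa: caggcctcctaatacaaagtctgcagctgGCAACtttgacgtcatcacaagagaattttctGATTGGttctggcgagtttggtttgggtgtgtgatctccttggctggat
H2-Eb1: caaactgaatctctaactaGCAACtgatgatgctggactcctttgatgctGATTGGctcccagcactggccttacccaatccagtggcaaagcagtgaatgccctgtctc
H2-DMb1: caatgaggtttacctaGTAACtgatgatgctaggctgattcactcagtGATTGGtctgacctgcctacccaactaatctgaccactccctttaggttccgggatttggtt
H2-Oa: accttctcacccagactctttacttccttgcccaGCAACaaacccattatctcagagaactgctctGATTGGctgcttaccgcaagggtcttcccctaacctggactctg
H2-Ob: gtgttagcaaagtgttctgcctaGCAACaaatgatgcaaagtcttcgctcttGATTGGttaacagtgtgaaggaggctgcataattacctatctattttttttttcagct

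These stretches lie at chr17:34287824-34287933 on the minus strand for H2-Aa, chr17:34305757-34305866 on the plus strand for H2-Eb1, chr17:34153081-34153190 on the plus strand for H2-DMb1, chr17:34092269-34092378 on the plus strand for H2-Oa and chr17:34238795-34238904 on the plus strand for H2-Ob. The gap between the cores is 27 bases in H2-Aa, H2-DMb1 and H2-Oa, 26 in H2-Eb1 and 24 in H2-Ob, and the pair starts between 94 and 76 bases before the start, as the map of matches shows. Neither of the 2 H2-DMa starts searched has the pair, nor has Rfx5, whose promoter holds GATTGG on the opposite strand at 2 places. The stretches before those H2-DMa starts end at chr17:34122831 and chr17:34125517. No other H2-DMa start was searched, so the pair may lie before one that was not. Outside the set, the class II gene H2-Eb2 has the pair, with a gap of 26 bases, and H2-DMb2 does not. A match is a description of letters and not a measured binding site.

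**Figure D1:**
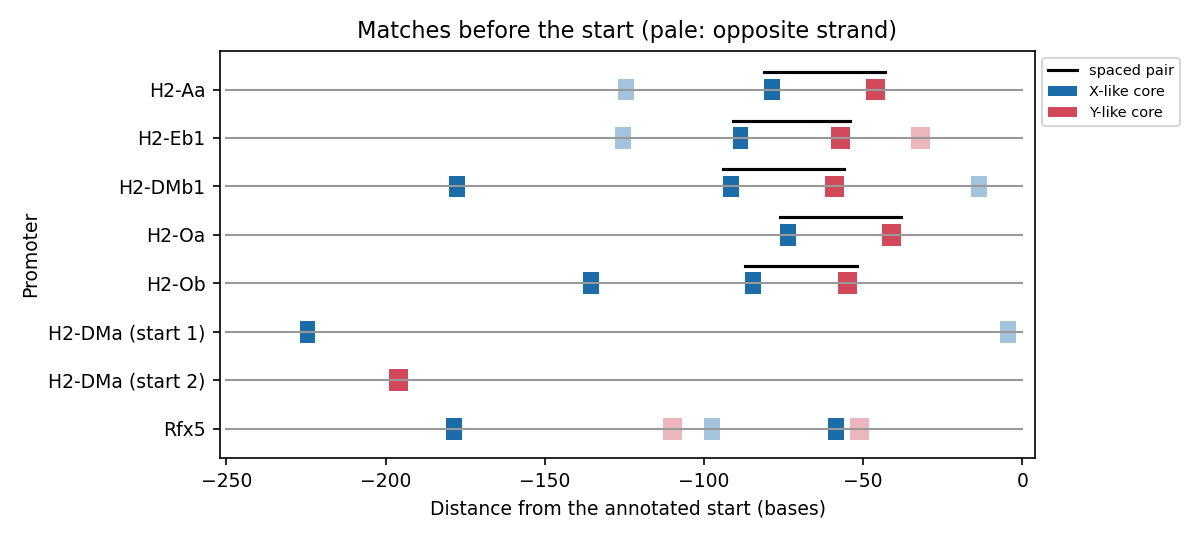
Matches to the X-box core (blue) and the Y-box core (red) in the 250 bases before each annotated start, with the x axis in bases from the start and 1 line per promoter; pale boxes are on the strand opposite to the gene and black bars mark the spaced pair. The pair sits at a similar distance in the top 5 promoters and is missing from both H2-DMa starts searched and from Rfx5.

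The targeted gene was checked first. The 1 Pparg probe set gave 61.1 and 73.1 in WT but 43.0 and 40.6 in KO, all 4 below the median of the antisense control probe sets of its array. KO was lower (log2 fold change -0.52, SE 0.11, adjusted p = 0.00012, limma without a signal filter), but at this brightness, and with the deleted part of the gene not described, it is a weak check of the labels. Array medians differed by at most 0.05 on the log2 scale, and antisense control medians ran from 104 to 116 intensity units. Of 6389 probe sets tested, 67 were higher and 165 lower in KO at an adjusted p under 0.05, so 28.9% of calls were higher, against 40.4% after quantile normalization (172 of 426). This share rested on single arrays: it was 50.8% without KO replicate 1 (130 of 256), 13.0% without KO replicate 2 (43 of 330) and 12.3% without WT replicate 2 (7 of 57). In the values below, the log2 fold change is KO minus WT on the scale log2(signal + 16), which understates changes of dim probe sets, folds are taken on that scale, and adjusted p-values are from limma with Benjamini-Hochberg adjustment over all 6389 probe sets.

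The class II genes were lower in KO macrophages. Of the 8 that passed the filter on dim probe sets, 7 fell, 0 rose and H2-Oa did not pass. By gene, 2.72% of the 5001 genes tested were lower and 1.06% higher. The median log2 fold change of the 8 was -0.85, beside -0.02 over all genes tested, and the KO signals of the 7 lay between 50.7% and 66.2% of WT. All 8 passed the filter in each genotype on its own, and the ninth measured gene, H2-Ob, lay below it in both. In all 9 measured genes both KO arrays read below both WT arrays, an order found at 23.8% of all 7577 genes with values. In these bulk samples, fewer cells carrying class II and less RNA per cell cannot be told apart.

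**Figure D2:**
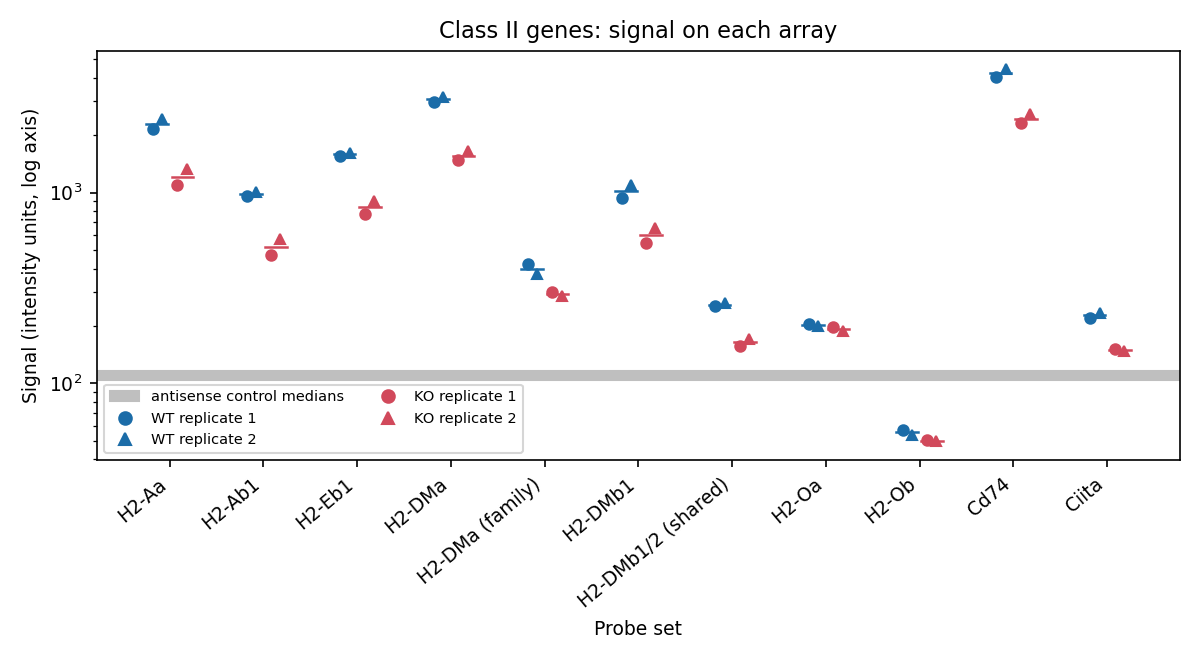
Signal of each probe set of the class II genes on each of the 4 arrays, in intensity units on a log axis; horizontal ticks are the means of 2 arrays and the grey band spans the antisense control medians. In 7 genes the KO arrays (red) lie clearly below the WT arrays (blue), while the H2-Oa points nearly coincide and H2-Ob lies under the grey band; heights of different probe sets are not comparable.

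The antigen-binding chains fell by similar amounts. H2-Aa, the I-A alpha chain, read 2165.5 and 2414.5 in WT and 1093.9 and 1325.6 in KO. Its highest KO array stood well under its lowest WT array, a 1.89-fold fall (log2 fold change -0.92, SE 0.16, adjusted p = 9.06e-07). H2-Ab1, the beta chain that pairs with it, read 959.5 and 1009.4 in WT and 468.3 and 570.3 in KO. The genotypes again did not overlap, and the fall was 1.88-fold (log2 fold change -0.91, SE 0.15, adjusted p = 2.26e-07). H2-Eb1, the I-E beta chain, read 1550.5 and 1619.8 in WT and 773.5 and 908.7 in KO. It fell 1.87-fold with no overlap (log2 fold change -0.91, SE 0.16, adjusted p = 1.00e-06). Within an array the ratio of H2-Ab1 or H2-Eb1 to H2-Aa moved by only 0.01 on the log2 scale between genotypes, less than it differed between the WT arrays (0.08 and 0.09).

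The DM chaperone chains fell as well, and which of them fell most depended on the probe sets used. The main probe set of H2-DMa read 2983.9 and 3186.0 in WT and 1477.0 and 1648.3 in KO. Both KO arrays stood far under both WT arrays, with a mean of 50.7% of WT, a 1.97-fold fall (log2 fold change -0.98, SE 0.16, adjusted p = 9.73e-08). A second H2-DMa probe set, whose suffix f marks probes that can match several related sequences, read 423.3 and 373.0 in WT and 300.2 and 285.7 in KO. It moved the same way by less (log2 fold change -0.42, SE 0.13, adjusted p = 0.035), and missed the threshold after median centring (adjusted p = 0.10) and when WT replicate 1 (0.9997), KO replicate 2 (0.058) or WT replicate 2 (0.68) was left out. The 2 probe sets of this gene therefore disagree on the size of the fall, by 0.55 on the log2 scale. With probe sets averaged by gene, the log2 fold change was -0.70 for H2-DMa and -0.75 for H2-DMb1. H2-DMb1, the DM beta chain, read 939.9 and 1095.3 in WT and 546.9 and 655.8 in KO. It fell 1.68-fold without overlap (log2 fold change -0.75, SE 0.15, adjusted p = 7.51e-05). The probe set shared by H2-DMb1 and H2-DMb2 read 253.6 and 264.2 in WT against 158.1 and 170.8 in KO (a log2 fold change of -0.61, adjusted p = 8.09e-06), and stayed past the threshold without each array in turn (highest adjusted p 0.049). Signals of the close relatives H2-DMb1 and H2-DMb2 cannot be separated with certainty on these arrays.

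The DO chains, which oppose DM and are best known from B cells, gave no call. H2-Oa, the DO alpha chain, read 204.3 and 200.1 in WT and 197.5 and 187.4 in KO. The KO arrays were the lower pair, by a margin within the error (log2 fold change -0.07, SE 0.11, adjusted p = 0.9997). H2-Oa exceeded the highest antisense control on all 4 arrays but lay near it (highest controls 144 to 157). A fold is understated there, so a change in H2-Oa may have been missed. H2-Ob, the beta chain, read 57.2 and 54.0 in WT and 50.3 and 49.7 in KO, below the antisense control median on every array. Its difference (log2 fold change -0.12, SE 0.11, adjusted p = 0.90 without a filter) was not detectable at this brightness. Relative to H2-Aa on the same array, H2-Oa was higher in KO by 0.85 on the log2 scale, with no overlap between genotypes. This ratio differed by 0.34 between the KO arrays and was not tested. Both DO promoters carry the spaced pair shown above, as do those of H2-Aa, H2-Eb1 and H2-DMb1.

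The invariant chain and the transactivator fell too, with smaller estimates than the I-A and I-E chains. Cd74 read 4050.3 and 4420.1 in WT and 2304.2 and 2565.8 in KO. The arrays did not overlap, and the fall was 1.74-fold (log2 fold change -0.80, SE 0.15, adjusted p = 2.22e-05). Ciita, the class II transactivator, read 221.6 and 232.6 in WT and 152.3 and 148.4 in KO. It fell 1.46-fold (log2 fold change -0.55, SE 0.11, adjusted p = 6.76e-05). All 4 Ciita signals exceeded the highest antisense control of their array but lay near it (highest controls 144 to 157), where a fold is understated; with a pseudocount of 1 the log2 fold change was -0.59 and with 64 it was -0.44. Within an array, the ratio to H2-Aa was higher in KO by 0.37 for Ciita, 0.12 for Cd74 and 0.17 for H2-DMb1 without overlap between genotypes, and differed by -0.06 with overlap for H2-DMa. These ratios were not tested. Between the KO arrays that of Ciita differed by 0.31, that of H2-DMa by 0.12 and that of H2-DMb1 by 0.02. The ratio of Cd74 differed between the KO arrays by as much as its shift (0.12).

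These calls rested on both WT arrays. Without WT replicate 1 only Ciita of the 8 genes passed, and without WT replicate 2 limma called 0, while 7 had an unadjusted p under 0.05 in each case. The background was then 0.84% and 0.78% of genes lower. The medians hardly moved, at -0.90 and -0.79. The 6 genes other than Ciita then had adjusted p from 0.055 to 0.37 without WT replicate 1 and from 0.12 to 0.79 without WT replicate 2. In those fits the spread comes from the KO pair alone. Moderation was complete there too, so each spread follows the trend with brightness over all probe sets and not a gene's own gap. Why the calls were lost was not tested. Over the 7 genes the second KO array was brighter than the first by 0.23 on the log2 scale (median), from -0.03 for Ciita to 0.28 for H2-Ab1, whereas the second WT array was brighter by 0.09. The brightest decile of tested probe sets had the same shifts, 0.21 in the KO pair and 0.07 in the WT pair. Cyclic loess, which removes shifts that depend on brightness, gave 7 lower with a median of -0.84, beside 4.32% of all genes. Without KO replicate 1 limma called 7 lower (2.02% of all genes), as it did without KO replicate 2 (4.54%). Asking also for a 1.5-fold change gave 6 lower, beside 1.16% of all genes. Ciita missed that rule through the pseudocount of 16; its log2 fold change of -0.59 with a pseudocount of 1 is past 1.5-fold. When the spread of every probe set was estimated from its own 4 values, with no moderation, 0 passed (adjusted p from 0.77 to 0.97; 0% of genes lower), though 7 of the 8 had an unadjusted p under 0.05.

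**Figure D3:**
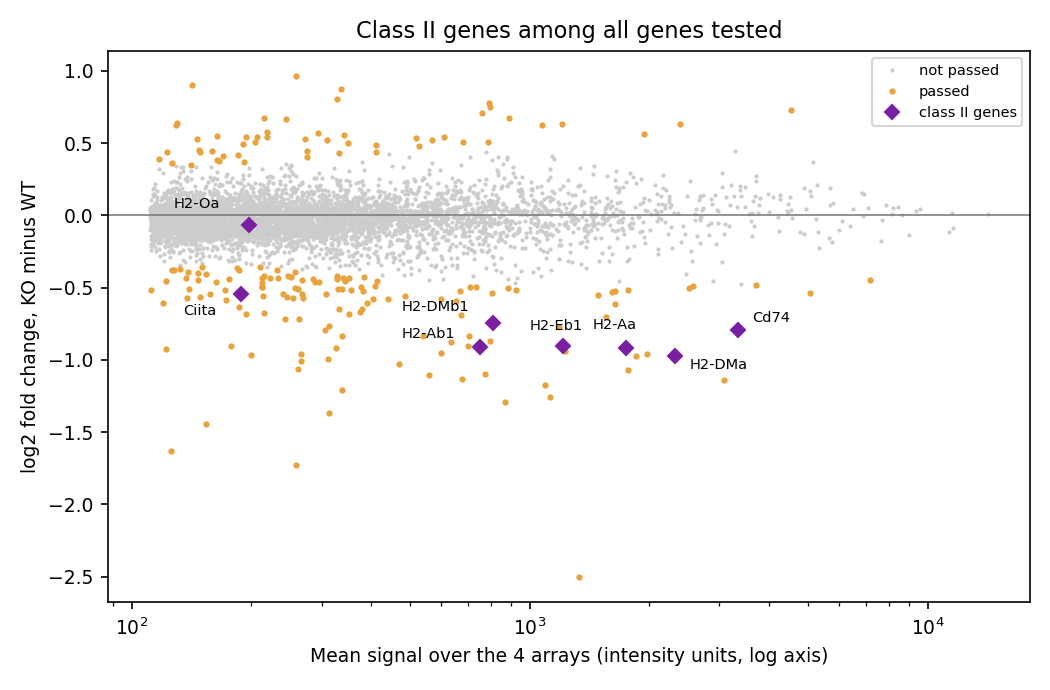
Log2 fold change against mean signal (log axis) for the 5001 genes tested, 1 point per gene; orange points passed an adjusted p of 0.05 and purple diamonds are the 8 class II genes above the filter. The 7 that fell lie below most genes of the same brightness, and H2-Oa lies inside it.

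The 4 tested partners of Ciita at the promoter gave no call. Of 7 genes listed for RFX, NF-Y and CREB subunits, 5 had values. Rfxap and Atf1 had none and Creb1 lay below the filter, so no CREB factor was tested. Limma called 0 of the 4, beside 2.72% of all genes lower and 1.06% higher, and cyclic loess called 0. With shares that low, 0 of 4 does not set these genes apart from others. In limma 0 had an unadjusted p under 0.05, and the median log2 fold change was -0.02. Nfyc, a subunit of the Y-box factor NF-Y, read 355.3 on both WT arrays, against 350.2 and 384.3 in KO (a log2 fold change of 0.04, adjusted p = 0.9997). Nfya, its sequence-recognising subunit, read 264.1 and 252.2 in WT and 228.8 and 289.2 in KO, overlapping fully. Rfxank, which with Rfx5 forms the RFX complex, read 197.7 and 214.7 in WT and 200.4 and 198.2 in KO (adjusted p = 0.9997; chosen after its values were seen). Among 21 tested genes outside the set whose promoters hold the spaced pair, limma called 0 lower, beside 2.72% of all genes tested. Cyclic loess also called 0 lower, beside 4.32%. At such shares 0 of 21 does not set these genes apart. In limma 2 had an unadjusted p under 0.05, and the median was -0.03.

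Genes upstream of Ciita in the interferon-gamma pathway fell in part. Of 9 listed, 7 were tested: 3 fell, 0 rose and 4 did not pass, with a median of -0.20. Irf1, the factor known to act on the Ciita promoter, read 2591.5 and 2630.2 in WT and 1221.4 and 1460.1 in KO. That is a fall of the size seen in the class II chains (log2 fold change -0.96, SE 0.16, adjusted p = 2.00e-07), and it too missed the threshold without WT replicate 1 (0.16) or WT replicate 2 (0.21). Jak2, a kinase of the receptor, read 177.6 and 181.4 in WT and 104.0 and 129.7 in KO (a log2 fold change of -0.56, adjusted p = 2.60e-05), 1 KO array falling to the level of the antisense controls. Socs1, the feedback inhibitor of this signalling, read 461.6 and 494.5 in WT and 175.5 and 222.9 in KO (a log2 fold change of -1.21, adjusted p = 9.02e-19). Jak2 and Socs1 stayed past the threshold without each array in turn. The receptor chains Ifngr1 and Ifngr2 and the kinase Jak1 were among the 4 that did not pass, with log2 fold changes of 0.18, 0.09 and -0.20 (chosen after their values were seen).

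The endosomal machinery that prepares peptides did not follow the class II chains. Of 10 proteases, reductases and inhibitors tested, 1 fell, 0 rose and 9 did not pass, with a median of 0.02. The 1 that fell was Cst7, which encodes cystatin F, an inhibitor of endosomal cysteine proteases; it read 406.9 and 406.4 in WT and 106.2 and 116.9 in KO (a log2 fold change of -1.73, adjusted p = 6.56e-48), the KO signals lying near the antisense control medians. Ctss, the cathepsin that trims the invariant chain, overlapped between genotypes (9091.7 and 9407.5 in WT, 8923.0 and 10015.6 in KO), and Ifi30, the thiol reductase of the same compartment, read 1765.4 and 2024.3 against 1530.3 and 1719.5 (adjusted p = 0.90); both were chosen after their values were seen. After quantile normalization, and after cyclic loess, 2 of the 10 fell and 2 rose. Of 5 tested surface partners, 2 fell and 0 rose, with a median of -0.30. The costimulatory gene Cd86 read 293.7 and 299.0 in WT and 186.8 and 203.9 in KO (a log2 fold change of -0.56, adjusted p = 0.00010), and missed the threshold without WT replicate 1 (0.076) or WT replicate 2 (0.14). Cd40, the receptor for T cell help, read 137.3 and 149.9 in WT and 87.5 and 114.3 in KO (a log2 fold change of -0.46, adjusted p = 0.0018), with KO signals near or below the antisense control medians; it missed the threshold without WT replicate 2 (0.31) or KO replicate 1 (0.27).

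Apart from Cd74, Ciita and Rfx5, the genes of the set are neighbours on chromosome 17, so the genes lying among them were read in order. From H2-Oa to H2-Eb1 the RefSeq order (GRCm38.p6) holds 13 genes, all with values, of which 5 that are no class II genes were tested; 3 of these fell, 0 rose and their median was -0.44. The wider list of neighbours held 9 tested genes, with the same 3 falling and a median of -0.25. The count of that list was 4 after quantile normalization or cyclic loess, 5 without KO replicate 2 and 1 after median centring. Tap1 and Tap2, which form the transporter that feeds peptides to class I molecules, read 1910.5 and 1951.7 in WT against 1050.0 and 1324.4 in KO (a log2 fold change of -0.70, adjusted p = 0.00055), and 351.3 and 410.5 against 251.8 and 300.7 (log2 fold change -0.44, adjusted p = 0.018). Psmb8, an immunoproteasome subunit, just passed (log2 fold change -0.49, adjusted p = 0.0496) and did not without a filter (0.067) or with a pseudocount of 64 (0.054). Psmb9, its neighbour, read 1005.7 and 1134.6 in WT and 687.4 and 899.7 in KO without overlap and did not pass (adjusted p = 0.11; chosen after its values were seen). It did pass after quantile normalization (0.0034), after cyclic loess (0.0010) and without KO replicate 2 (0.00046). None of the 3 passed without WT replicate 1 or WT replicate 2. Tap2 also missed the threshold without KO replicate 1 (0.18), and Psmb8 and Tap2 after median centring (0.16 and 0.059). At one end of the region, neither H2-Oa (-0.07) nor the genes on either side of it passed, Col11a2 at 0.06 (adjusted p = 0.9997) and Brd2 at -0.25 (0.50). Brd2 passed without KO replicate 2 (0.016).

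**Figure D4:**
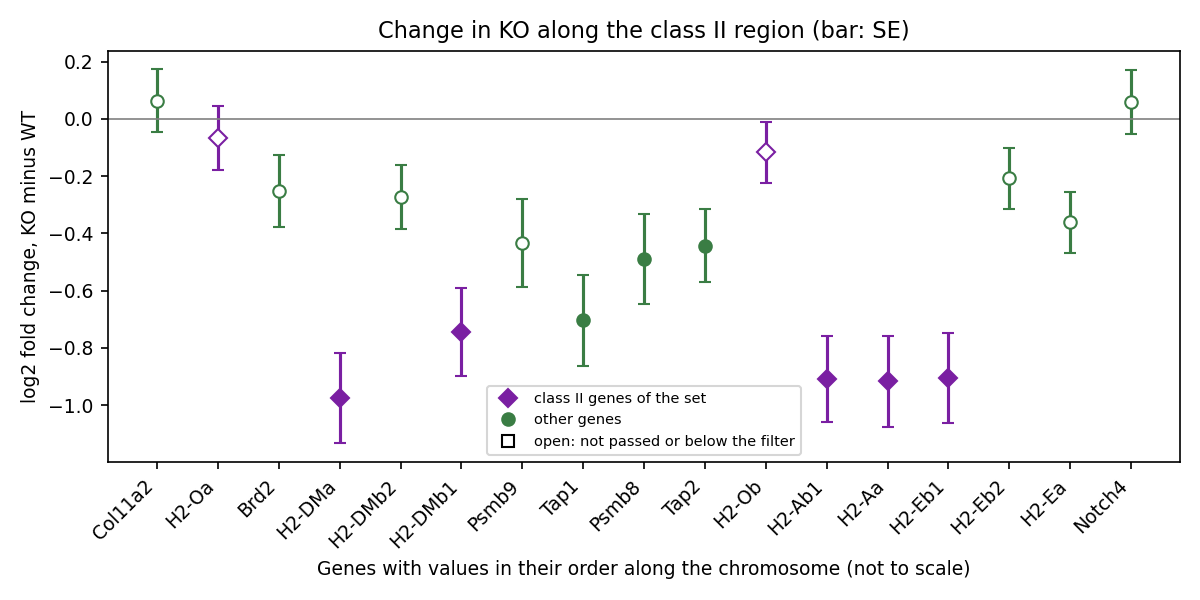
Log2 fold change (KO minus WT) with SE bars for the genes with values from Col11a2 to Notch4, in their order on the chromosome and not to scale; diamonds are genes of the set, circles other genes, and filled symbols passed an adjusted p of 0.05. H2-DMa, H2-DMb1, H2-Ab1, H2-Aa and H2-Eb1 lie lowest, Tap1, Psmb8 and Tap2 between, and Col11a2, H2-Oa and Notch4 near 0.

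The 3 other class II genes of this region lay below the filter. H2-Ea, annotated as a transcribed pseudogene in the reference strain, read 58.9 on both WT arrays and 46.7 and 38.2 in KO (a log2 fold change of -0.36, adjusted p = 0.027 without a filter), beneath the antisense control medians. H2-DMb2 read 115.2 and 128.6 in WT and 98.4 and 97.7 in KO (adjusted p = 0.24 without a filter), and H2-Eb2 read between 31.5 and 43.2 on all arrays (0.47). These values give an order of arrays but no reliable size.

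Across the 4 arrays, the genes outside the set most like the chains were found by their distance. Each gene's log2 values were centred on its own mean and compared with the mean profile of H2-Aa, H2-Ab1 and H2-Eb1 by the root mean square difference, over 4 arrays and 5001 genes. The nearest were Irgm2, an immunity-related GTPase (difference 0.02), Il18bp, a decoy for interleukin-18 (0.02), Sod2, mitochondrial superoxide dismutase (0.03), Irf1 (0.04) and Samhd1, a nucleotide phosphohydrolase (0.04). In the set itself, H2-DMa (0.05), Cd74 (0.07) and H2-DMb1 (0.09) came close, Ciita was further away (0.21), and H2-Oa ranked 1882 of 5001 (0.44). With 4 arrays such a likeness is mostly a similar size of fall.

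Markers of macrophages and of other cells that carry class II were read beside these falls. All 10 macrophage markers were tested. Of these 1 fell, Mertk, a receptor for apoptotic cells (225.6 and 233.4 in WT against 134.7 and 150.5, adjusted p = 1.34e-06), and 0 rose (3 fell after quantile normalization). In limma 2 had an unadjusted p under 0.05, and the median was -0.09. Both KO arrays read below both WT arrays in 4, beside 23.8% of all genes with values, and above them in 1. Summed signals, which the brightest markers dominate, were 27089 to 27557 in WT and 25320 to 28938 in KO. Dendritic cell markers had values for 13 of 16 genes, with summed signals of 3499 to 3659 in WT and 3396 to 3594 in KO. Of 9 tested, Ly75, an endocytic receptor, fell (438.8 and 360.8 against 218.6 and 235.8, adjusted p = 1.22e-07) and Cd24a, a surface glycoprotein, rose (243.9 and 224.6 against 392.0 and 454.1, adjusted p = 2.81e-08), with a median of -0.08. Ly75 missed the threshold without WT replicate 1 (0.068) and Cd24a without WT replicate 2 (0.066).

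B cell markers had values for 10 of 14 genes, and their summed signals were 1529 to 1592 in WT and 1492.5 to 1528.0 in KO. Limma called 0 of the 6 tested, 0 had an unadjusted p under 0.05, cyclic loess called 0 and the median was 0.02; 4 of the 10 lay below the antisense control median on every array. Ighm, the IgM heavy chain gene, read 440.3 and 468.5 in WT and 363.3 and 412.8 in KO, and Cd22, a B cell surface inhibitor, 256.0 and 273.3 against 239.2 and 279.3. T and NK cell markers summed to 818 to 838 in WT and 765 to 826 in KO, and 8 of 10 lay below the antisense control median on every array; Cd3e, a T cell receptor subunit, was the 1 tested and did not pass (0.16). Markers of resident peritoneal macrophages, which are known to differ in class II from recruited cells, had values for 7 of 10 genes. Their summed signals were 933 to 1028 in WT and 1096 to 1210 in KO. Of 4 tested, Cxcl13, a B cell chemoattractant, rose (250.7 and 214.9 in WT against 316.9 and 390.9, adjusted p = 0.00025), and missed the threshold without WT replicate 1 (0.068) or WT replicate 2 (0.84). The other 3 did not pass, with log2 fold changes of 0.26 for Fcna, 0.06 for Icam2 and -0.11 for Serpinb2 (chosen after their values were seen). Cxcl13 weighed most in the difference of the sums. Gata6, Alox15 and Selp lay below the filter, and Timd4, Prg4 and Vsig4 had no values. No marker was listed at 0. The part of other cells in the class II falls was not tested.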

How the data were processed

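Genotype and replicate number came from the sample titles. Each deposited value is an intensity, linear by its range. Summarisation, background correction and scaling by the authors are not given in the sources used. Of 12488 rows, 1780 were blank and 59 were controls, leaving 10649; the platform annotation gave 1 gene for 9389, several for 341 and none for 919. Array medians of log2(signal + 16) differed by 0.05, so no rescaling was done. Probe sets whose mean signal lay above the 40th percentile (111.4) were kept (6389) and fitted with limma 3.58.1 in R 4.3.3 (lmFit, eBayes with an intensity trend), two-sided. Moderation was complete (infinite prior degrees of freedom): spreads follow the fitted trend alone, and very small p-values rest on that. Values below the filter come from an unfiltered fit. The brightest kept probe set stands for a gene. An exact permutation of 2 against 2 arrays cannot go below p = 0.33.

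The members and lists were chosen with earlier results of these data known. The lists were fixed from general knowledge: other class II genes, promoter partners, the interferon-gamma pathway, peptide supply, surface partners, region neighbours and markers of 5 cell types. From each, genes that passed are named (at most 4, by p), or the 2 brightest where 0 passed; others are marked as chosen after their values were seen. The fit was tested on simulated data with independent noise set by brightness alone. Same-numbered arrays here deviated together (correlation 0.42), so that run does not check the p-values given. Alternatives were pseudocounts of 1 and 64, quantile, median or cyclic loess scaling, a filter at the 60th percentile or none, other moderation, an adjusted p of 0.1, a 1.5-fold rule, the replicate block, each array left out, and gene values averaged over probe sets. The number of arrays limits the precision. Plots used Python 3.11.15 and matplotlib 3.10.9.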

Additional observations from a re-analysis of the deposited data

How the results depend on the processing

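The count of class II genes lower in KO was 7 in all but 4 of the settings tried: 6 when a change of 1.5-fold was also asked for, 0 without moderation, and from 0 to 7 when each array was left out, the low values coming from the 2 fits without a WT array. Their median log2 fold change stayed within the spread between replicates (0.14) throughout and ran from -0.95 to -0.74 without an array. The count of probe sets called among all, 232, was 426 after quantile normalization, 439 after cyclic loess, 91 with the 1.5-fold rule, 0 without moderation (391 with an unadjusted p under 0.05) and from 57 to 330 without an array. Of 572 values of the 32 named probe sets under alternatives, 79 were no longer past the threshold, 63 of them without a WT array or without moderation; the cause was not tested. A further 8 values, of 3 probe sets past the threshold neither before nor after, changed sign: Nfya (-0.004) was 0.020 after quantile normalization, 0.023 after median centring, 0.023 after cyclic loess and from -0.16 to 0.16 without an array, Nfyc (0.04) ran from -0.020 to 0.11 and Cd22 (-0.03) from -0.14 to 0.074 without an array. With the replicate number as a block, 486 probe sets passed and the class II count stayed at 7; same-numbered arrays deviated together over probe sets (correlation 0.42), but with only 2 pairs the numbers are not known to pair the samples, and the block changed no other call of a class II gene. Dim signals limit H2-Ob, Pparg and the other class II genes below the filter.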
